A study of Mus musculus with 23 samples.

Results

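Gene expression was compared between Eed-null and control villus of the adult mouse intestine, gene by gene and grouped by function. The members were all named genes that the authors tested between both groups, 12525 of the 22517 named genes in the deposited table. Control villus came from mice with the genotype EedF/F; Cre-, which carry floxed Eed alleles and no Cre recombinase, and Eed-null villus from EedF/F; Villin-CRE mice, in which the Villin promoter drives Cre in the intestinal epithelium. Both groups had a B6;129 mixed background, and all mice had received 1 to 2 mg tamoxifen on 5 days to activate the inducible Cre. Each group had 3 RNA-seq libraries, called biological replicates in the labels, made from epithelium of the proximal intestine that was released in 5 mM EDTA for 45 minutes. The table gives the authors' 1 pooled value per group in RPKM (reads scaled to gene length and to all mapped reads). Values per library, their spread and their depth are therefore unknown. The error of each difference is carried by the authors' q-value alone, a p-value adjusted over the tested genes, and a gene is called here, and said to rise or fall, where q was at or below 0.05. The presence of Cre and the loss of Eed differ together between the groups and cannot be told apart.

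Eed is the subunit of Polycomb repressive complex 2 (PRC2) that binds the mark the complex places, trimethylated lysine 27 of histone H3, and holds the catalytic subunits Ezh2 and Ezh1 active. The complex keeps developmental regulators and genes of other tissues silent in differentiated cells. The villus epithelium is renewed from crypts by dividing stem cells, whose daughters become absorptive enterocytes, which digest and take up nutrients, or secretory goblet, Paneth, enteroendocrine and tuft cells.

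Of the 12525 genes tested, 1422 were called (11.4%), of which 989 were higher (7.90% of tested) and 433 lower (3.46% of tested) in Eed-null villus. The genes that rose were mostly scarce in control villus and those that fell were abundant there. The median control level was 0.793 RPKM for genes that rose and 18 RPKM for genes that fell, against 6.64 RPKM over all tested genes. The median fold was 3.29 among genes that rose and 1.98 among genes that fell. Among genes that rose, 191 changed 10-fold or more or were listed at 0 in control villus, which held for 19 of them, and among genes that fell 7 did so or were listed at 0 in Eed-null villus, which held for 1. Over the 10003 genes with at least 1 RPKM in each group the median log2 ratio of Eed-null to control villus was -0.10. Differences below are read against that shift, and list medians are given as differences of log2(RPKM + 1), Eed-null minus control, whose median over all tested genes was -0.06. Values were lower in Eed-null villus for 7228 of the 12525 tested genes.

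**Figure D1:**
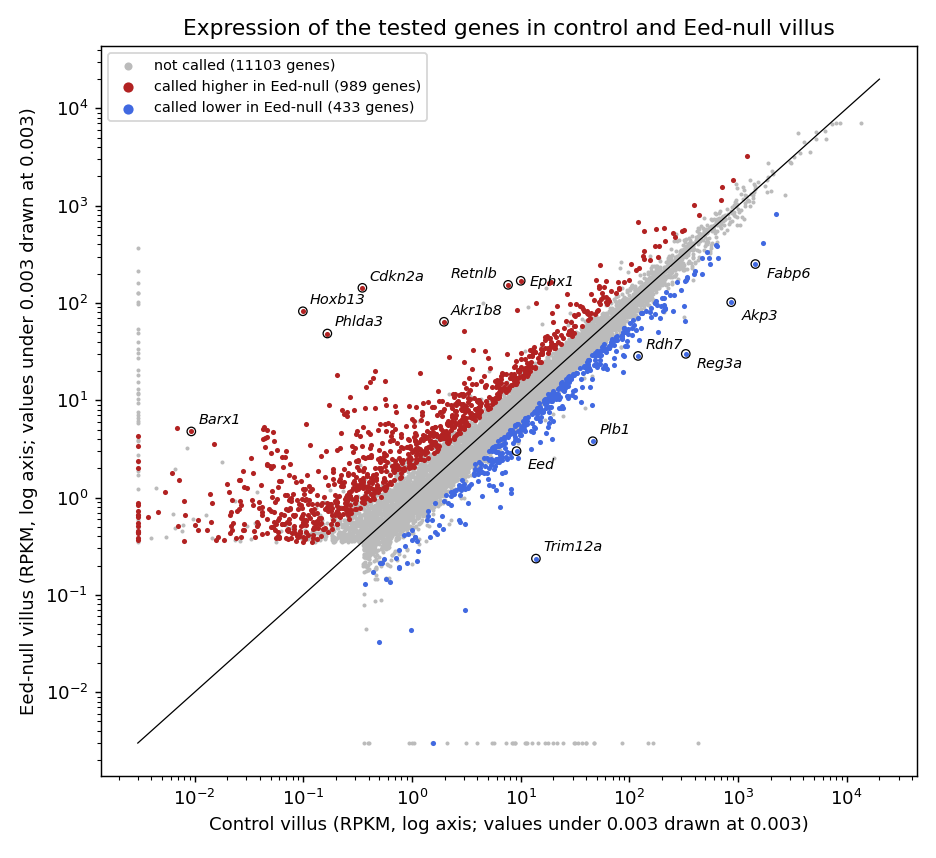
RPKM of each tested gene in control villus (horizontal, log axis) and Eed-null villus (vertical, log axis), with genes called higher in red, called lower in blue and not called in grey, and equality as a line. The 989 red points spread far above the line at low control levels, while the 433 blue points lie mostly near it at high control levels.

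No tested gene had less than 0.351 RPKM in its higher group, so a gene below that level in control villus could only be called higher. Among the 743 genes below it, 373 were called higher (50.2%). From 0.351 to 1 RPKM in control villus the shares were 10.3% higher and 1.22% lower, and from 1 to 10 RPKM they were 5.91% and 2.81%. Above this range the lower calls were the more frequent, with 3.12% higher and 4.93% lower from 10 to 100 RPKM and 2.96% higher and 6.87% lower among the 844 genes at 100 RPKM or more. Because of this floor, lists below with scarce members are also counted over the members at or above 0.351 RPKM in control villus, called above the floor. Over all tested genes the share called higher above the floor was thus 10.3% to 2.96% by class. Counts above the floor are read against these shares and not against 7.90%, which includes the genes below it.

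**Figure D2:**
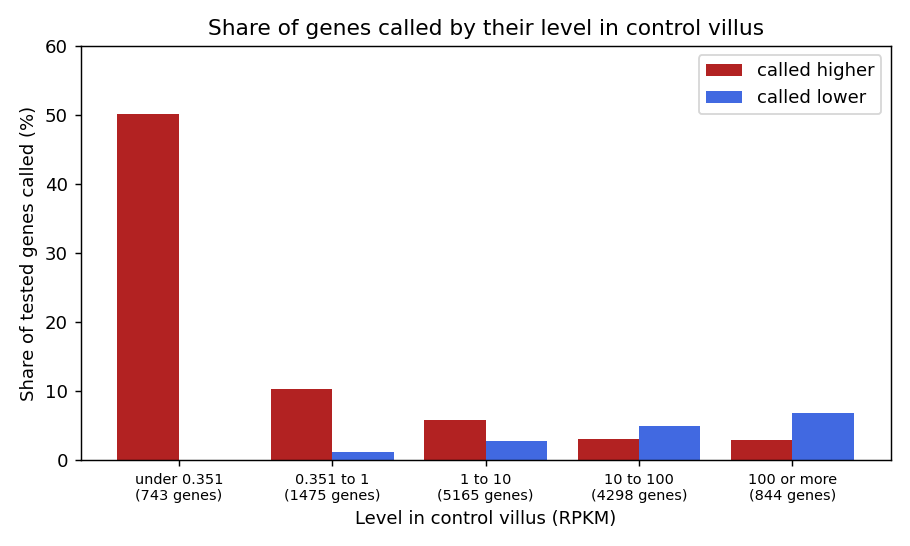
Share of tested genes called higher (red) and lower (blue) in Eed-null villus, by class of the RPKM in control villus. Higher calls fall from 50.2% in the lowest class to 2.96% in the highest, and lower calls rise to 6.87%.

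The targeted gene was lower but still detected. Eed fell from 9.17 to 3.00 RPKM, 3.05-fold, at q = 6.29e-06 in the authors' deposited table, a value that can include reads from exons that are not floxed. The other tested PRC2 subunits were not called. Suz12, a core subunit, had 14.9 RPKM in control and 13.9 RPKM in Eed-null villus. Of 20 tested subunits of PRC1, the second Polycomb complex, which places ubiquitin on histone H2A, 3 rose and none fell. They were Bmi1, a ring finger partner subunit, from 3.25 to 12 RPKM, Scmh1 from 1.19 to 3.13 RPKM, and Rnf2, the ubiquitin ligase, from 4.29 to 7.80 RPKM. None of 27 tested members of a list of demethylases, methyltransferases and readers of other histone marks was called. Of their values 24 were lower in Eed-null villus, beside 7228 of 12525 over all tested genes. The list does not hold every chromatin gene. Outside it Ash2l, of histone methyltransferase complexes, fell from 19.3 to 10.2 RPKM, and the deacetylase gene Hdac11 from 18.1 to 5.81 RPKM. Brdt, a bromodomain gene, rose from 0.0943 to 0.617 RPKM, from below the floor.

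The epithelial label held in both groups. The epithelial adhesion gene Epcam had 767 RPKM in control and 811 RPKM in Eed-null villus, Cdh1, which encodes E-cadherin, had 138 RPKM in control and 133 RPKM in Eed-null villus, and Vil1, the villin gene whose promoter drives the Cre, had 1025 RPKM in control and 854 RPKM in Eed-null villus. None of these was called, and Vil1 shares its locus entry with another gene. Markers of other cell types were called in few cases. Of 29 tested leukocyte markers, none rose and Gzmb, a granzyme of cytotoxic lymphocytes, fell from 18.7 to 10.6 RPKM, and their summed level was 188 RPKM in control and 139 RPKM in Eed-null villus. Of 28 mesenchyme and smooth muscle markers 6 were tested, with a summed level of 101 RPKM in control and 90.01 RPKM in Eed-null villus, of which Fn1 rose and Fbln1 fell. The collagen gene Col1a1, below the level of the test, had 0.0519 RPKM in control and 0.0910 RPKM in Eed-null villus. Of 22 endothelial markers 7 were tested, with a summed level of 4.09 RPKM in control and 4.62 RPKM in Eed-null villus, of which Sox17 rose from 0.00369 to 0.635 RPKM and the receptor gene Tek fell from 0.762 to 0.191 RPKM. Of 16 nerve and glia markers 5 were tested, with a summed level of 81.9 RPKM in control and 62.7 RPKM in Eed-null villus. Most of that sum was Erbb3, a receptor that epithelium also expresses, at 80.2 RPKM in control and 56.9 RPKM in Eed-null villus, the receptor gene Ret rose, and Sox10, Vip and Nos1 were listed at 0 in both groups. Of 25 pancreas acinar genes 8 were tested, with a summed level of 174 RPKM in control and 318 RPKM in Eed-null villus. Clps and Pnliprp2, which made up most of that sum, rose and are also on the Paneth cell list. Of the untested genes 9, among them the trypsinogen gene Prss1 and the amylase gene Amy2a5, were listed at 0 in both groups. A listed 0 can be a failed estimate and does not show that a gene is absent. In these bulk libraries fewer cells of a type and less RNA per cell cannot be told apart, which holds for every list below.

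Promoter sequences are shown for 3 genes that rose far and 3 that fell, because mammalian PRC2 is known to act at promoters rich in CG dinucleotides. Each window runs from 250 bases before to 50 after a RefSeq transcription start on GRCm38.p6, written in the direction of transcription with each CG in capitals, and these coordinates are of a different build from the mm9 of the expression table. Those of Cdkn2a (chr4:89294570-89294869, minus strand, 1 of 2 windows listed for the gene), Phlda3 (chr1:135765835-135766134, plus strand) and Barx1 (chr13:48662786-48663085, plus strand), which rose, come first. They are followed by Akp3 (chr1:87124704-87125003, plus strand), Fabp6 (chr11:43601513-43601812, minus strand) and Rdh7 (chr10:127889198-127889497, minus strand, 1 of 2 windows listed), which fell.
Cdkn2a: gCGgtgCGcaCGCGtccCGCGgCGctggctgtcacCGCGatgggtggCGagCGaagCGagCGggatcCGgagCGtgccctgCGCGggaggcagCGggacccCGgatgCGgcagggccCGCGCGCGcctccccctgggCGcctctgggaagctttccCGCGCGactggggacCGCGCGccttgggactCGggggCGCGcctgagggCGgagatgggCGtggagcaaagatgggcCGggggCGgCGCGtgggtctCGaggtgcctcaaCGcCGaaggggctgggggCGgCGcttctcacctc
Phlda3: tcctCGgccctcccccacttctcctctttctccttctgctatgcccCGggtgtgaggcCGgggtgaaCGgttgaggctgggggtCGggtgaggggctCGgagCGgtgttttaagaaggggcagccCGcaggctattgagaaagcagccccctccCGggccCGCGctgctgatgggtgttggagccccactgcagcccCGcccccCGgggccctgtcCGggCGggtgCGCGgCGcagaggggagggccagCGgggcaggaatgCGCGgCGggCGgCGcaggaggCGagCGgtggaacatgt
Barx1: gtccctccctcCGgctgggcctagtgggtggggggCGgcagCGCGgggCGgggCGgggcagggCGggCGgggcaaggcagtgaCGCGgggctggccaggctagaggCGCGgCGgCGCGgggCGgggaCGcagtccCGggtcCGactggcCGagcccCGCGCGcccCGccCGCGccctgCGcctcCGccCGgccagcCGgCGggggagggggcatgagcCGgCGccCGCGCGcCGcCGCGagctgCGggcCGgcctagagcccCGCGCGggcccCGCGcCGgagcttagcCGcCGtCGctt
Akp3: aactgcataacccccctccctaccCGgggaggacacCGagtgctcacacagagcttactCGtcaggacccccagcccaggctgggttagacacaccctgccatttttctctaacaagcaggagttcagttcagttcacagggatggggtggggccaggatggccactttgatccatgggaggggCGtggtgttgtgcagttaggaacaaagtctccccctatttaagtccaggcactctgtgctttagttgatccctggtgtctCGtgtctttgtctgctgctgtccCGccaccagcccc
Fabp6: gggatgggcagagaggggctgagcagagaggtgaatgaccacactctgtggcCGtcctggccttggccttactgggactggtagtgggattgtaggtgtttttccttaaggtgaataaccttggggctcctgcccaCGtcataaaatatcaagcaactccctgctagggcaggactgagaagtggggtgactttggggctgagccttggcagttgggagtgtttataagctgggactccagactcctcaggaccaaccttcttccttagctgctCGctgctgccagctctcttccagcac
Rdh7: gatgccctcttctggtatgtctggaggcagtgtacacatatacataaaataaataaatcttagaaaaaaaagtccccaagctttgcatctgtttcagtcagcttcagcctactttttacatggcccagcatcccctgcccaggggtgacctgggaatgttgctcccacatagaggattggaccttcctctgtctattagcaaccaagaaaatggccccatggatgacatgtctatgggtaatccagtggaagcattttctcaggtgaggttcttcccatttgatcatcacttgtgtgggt

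The windows of the genes that rose held 45 CG in Cdkn2a, 26 in Phlda3 and 50 in Barx1, whereas those of the genes that fell held 6 in Akp3, 3 in Fabp6 and 0 in Rdh7. Over all 32851 windows of the table the median was 7, with quartiles of 3 and 20, and 5.43% of windows held none. At least as many CG as in Cdkn2a stood in 1.93% of windows, as in Barx1 in 0.855% and as in Phlda3 in 16.9%. At least as many as in Akp3 stood in 56.4%. The genes were picked with their expression known and not by rank. Barx1 had rank 39 by difference among the genes that rose, and Rdh7 rank 12 among those that fell. The 6 windows therefore describe these promoters and no class of genes, and whether PRC2 acts at any of them was not tested. Cdkn2a encodes p16, which stops the cell cycle, and Arf, which activates p53, Phlda3 a repressor of Akt induced by p53, and Barx1 a homeobox factor of the embryonic stomach. Their levels went from 0.350 to 143 RPKM, from 0.166 to 48.6 RPKM and from 0.00932 to 4.79 RPKM. Akp3, an intestinal alkaline phosphatase, went from 865 to 102 RPKM, Fabp6, the ileal bile acid binding protein, from 1444 to 251 RPKM, and Rdh7, a retinol dehydrogenase, from 120.2 to 28.6 RPKM.

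Brush-border digestion genes fell in part. Of 8 tested disaccharidases and alkaline phosphatases, 4 fell and none rose, with a median log2 difference of -0.75. Besides Akp3, which fell 8.50-fold, these were the trehalase gene Treh from 297 to 135 RPKM, the lactase gene Lct from 328 to 168 RPKM and the placental-like phosphatase gene Alppl2 from 1.76 to 0.526 RPKM. Lct fell 1.95-fold, with q = 0.0165, and Treh 2.20-fold, at q = 9.72e-05 in the authors' deposited table. Sis, the sucrase-isomaltase gene, had 1127 RPKM in control and 733 RPKM in Eed-null villus, and Alpi, the other main intestinal phosphatase gene, had 986 RPKM in control and 633 RPKM in Eed-null villus. Neither was called, with q = 0.443 and 0.224 in the authors' deposited table. Among 29 tested brush-border peptidases, Ace, the angiotensin-converting carboxypeptidase, fell from 550.4 to 253 RPKM, and Xpnpep2, a membrane-bound aminopeptidase, from 59.6 to 23 RPKM. Cpm, a carboxypeptidase, rose from 3.95 to 7.68 RPKM, while Anpep, the abundant aminopeptidase N, had 1829 RPKM in control and 1851 RPKM in Eed-null villus and was not called.

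Fat digestion and absorption genes moved both ways, 9 higher and 6 lower of 58 tested. The largest fall was that of Plb1, a brush-border phospholipase, from 46.1 to 3.80 RPKM, 12.1-fold. Apoc3, an apolipoprotein of triglyceride-rich particles, fell from 2243 to 819 RPKM, and the fatty acid carriers Slc27a2 and Cd36 fell from 97.1 to 47.6 RPKM and from 41.5 to 25.8 RPKM. Genes that rose included Lpin1, which makes diacylglycerol for triglyceride synthesis, from 1.04 to 6.12 RPKM, and Scarb1, the high-density lipoprotein receptor, from 19.7 to 64.1 RPKM. Soat1, which esterifies cholesterol, rose from 2.35 to 8.34 RPKM. Core genes of chylomicron assembly were not called. Apob, the structural protein of these particles, had 376 RPKM in control and 347 RPKM in Eed-null villus, and Mttp, which loads lipid onto it, had 822 RPKM in control and 745 RPKM in Eed-null villus. Fabp2, the intestinal fatty acid binding protein, had 13528 RPKM in control and 7122 RPKM in Eed-null villus, at q = 0.126 in the authors' deposited table.

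Several genes of bile acid handling fell. Fabp6 fell 5.74-fold, with q listed at 0 in the authors' deposited table. Slc10a2, the apical sodium-dependent bile acid carrier, fell from 23.9 to 8.65 RPKM, and Slc51a, a subunit of the basolateral bile acid exporter, from 195 to 93.8 RPKM. Baat, which conjugates bile acids to amino acids, fell from 1.70 to 0.425 RPKM, and Enpp7, the alkaline sphingomyelinase of the brush border, from 342 to 180.1 RPKM. In the list of enterocyte zonation and bile acid genes 6 of 25 tested members fell and 3 rose. Those that rose handle nucleosides at the villus tip. They were Ada, adenosine deaminase, from 711 to 1546 RPKM, Nt5e, the ectonucleotidase that makes adenosine, from 60.5 to 167 RPKM, and Slc28a2, a nucleoside carrier, from 53.2 to 97.1 RPKM.

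Genes with a known place along the gut did not move as 1 block. In the list for ileum and colon, 13 of 33 tested members rose and 4 fell, and of the 30 at or above 0.351 RPKM in control villus 10 rose. Retnlb, a goblet cell protein of the distal gut, rose from 7.66 to 154 RPKM, and the mucosal pentraxin genes Mptx1 and Mptx2 from 119 to 686 RPKM and from 135 to 345 RPKM. Aqp8, a water channel of the colon, rose from 3.39 to 12.8 RPKM, and B3galt5, a glycosyltransferase, from 1.07 to 3.13 RPKM. The members that fell were Fabp6, Slc10a2, the glucagon gene Gcg from 9.53 to 2.58 RPKM and B4galnt2, a glycosyltransferase, from 171 to 101 RPKM. In the list for duodenum and jejunum 4 members rose and 4 fell of 21 tested. Cybrd1, the duodenal ferric reductase, rose from 6.64 to 16.7 RPKM, Slc11a2, the iron carrier that works with it, from 27.1 to 47.9 RPKM, and Pdx1, a homeobox factor of duodenum and pancreas that shares its locus entry, from 9.46 to 20.3 RPKM. Trpv6, the apical calcium channel, fell from 5.91 to 1.21 RPKM, and Cyp3a25, a cytochrome P450, from 213 to 86.6 RPKM.

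Among 242 tested solute carrier genes, 25 rose (10.3%), 19 of the 232 above the floor, and 19 fell (7.85%). Over all tested genes the shares were 7.90% and 3.46%, so the share that rose lay near that of all genes. The largest rises were those of Slc43a3, a nucleobase carrier, from 0.411 to 15.4 RPKM, 37.4-fold, and Slc25a4, the mitochondrial adenine nucleotide exchanger, from 13.7 to 100.1 RPKM, 7.30-fold. The glutamine carriers Slc38a1 and Slc38a3 rose from 3.01 to 11.4 RPKM and from 0.644 to 4.26 RPKM, and Slc6a14, a broad amino acid carrier, from 0.0468 to 2.20 RPKM. Both thiamine carriers rose, Slc19a3 from 6.06 to 14 RPKM and Slc19a2 from 6.80 to 12.8 RPKM. Slc2a1, a glucose carrier found in most tissues, rose from 5.62 to 9.92 RPKM. The main sugar carriers of the enterocyte were not called. Slc5a1, the sodium-glucose carrier, had 1117 RPKM in control and 1561 RPKM in Eed-null villus, Slc2a5, the fructose carrier, 83.6 RPKM in control and 94.5 RPKM in Eed-null villus, and Slc2a2, the basolateral exit carrier, 186 RPKM in control and 154 RPKM in Eed-null villus.

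Carriers that fell included several for vitamins and organic acids. Slc23a1, a vitamin C carrier that shares its locus entry, fell from 26.6 to 11.1 RPKM, and Slc5a6, the sodium-dependent carrier of biotin and pantothenate that also shares its entry, from 18.3 to 8.51 RPKM. Slc16a9, of the monocarboxylate carrier family, fell from 8.08 to 1.12 RPKM, 7.24-fold, and Slc5a12, a sodium-lactate carrier, from 65.6 to 35.8 RPKM. Slc37a2, a sugar phosphate exchanger, fell from 17.3 to 4.60 RPKM. Slc25a37, the mitochondrial iron importer mitoferrin, fell from 35.6 to 16.6 RPKM, and the proline carrier Slc6a20a from 116 to 53.4 RPKM. Cubn, the endocytic receptor for vitamin B12 with its carrier protein, which is in none of the carrier lists, fell from 36.2 to 9.69 RPKM. Of 57 tested channel genes 10 rose, 8 of the 50 above the floor, and 5 fell, among them the water channel Aqp1, which fell from 87.4 to 28.9 RPKM, and the potassium channel gene Kcnj16, which rose from 1.06 to 3.89 RPKM.

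**Figure D3:**
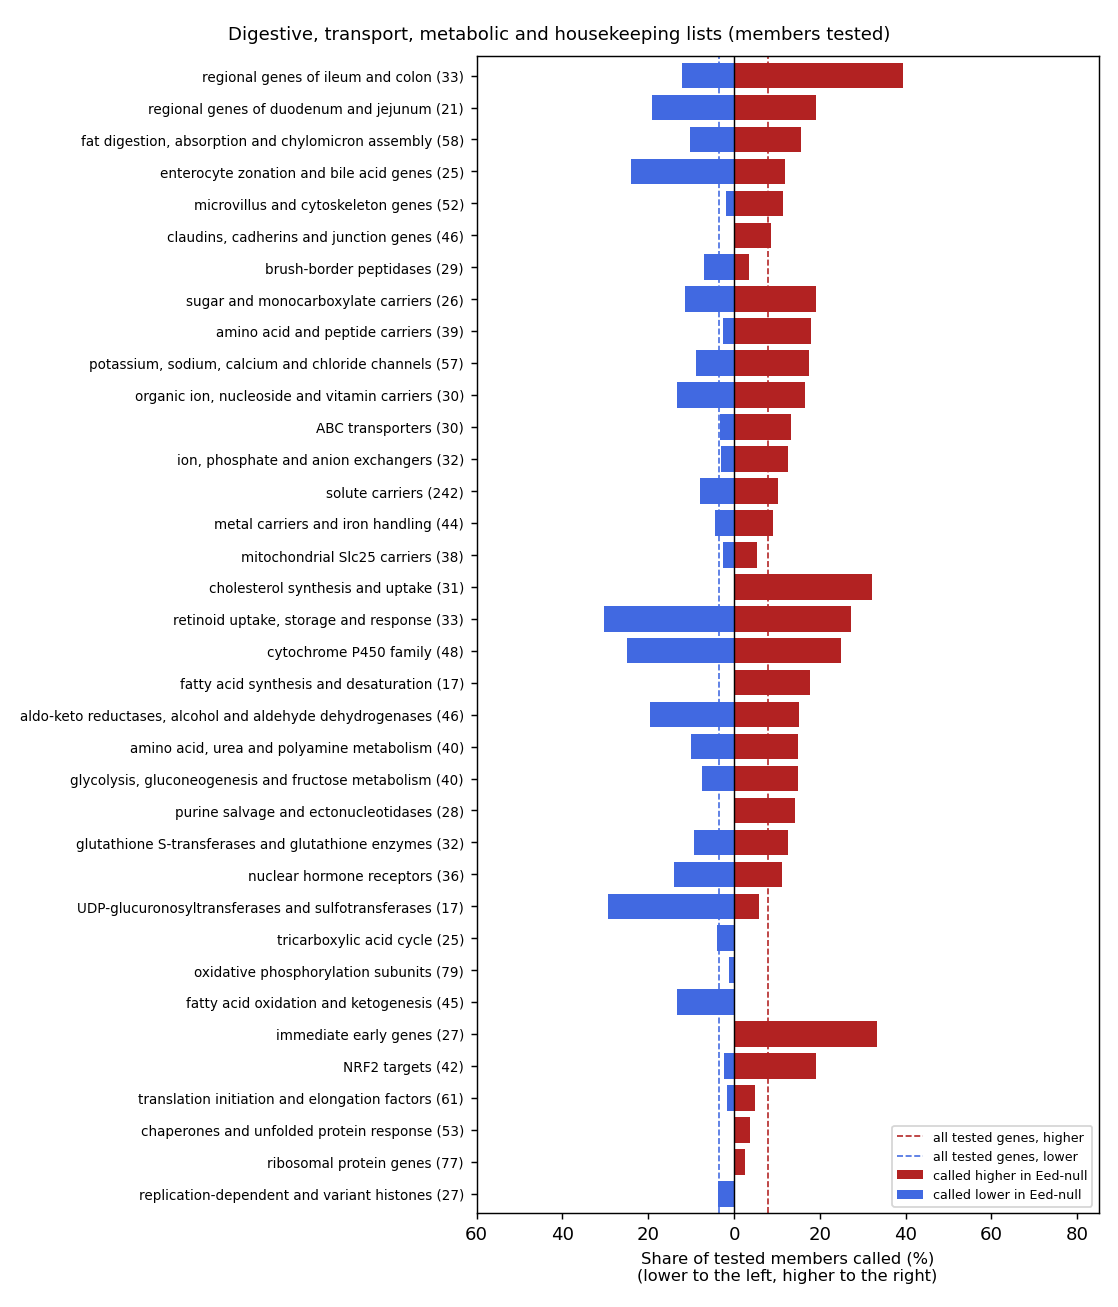
Share of tested members called higher (red, to the right) and lower (blue, to the left) in each digestive, transport, metabolic and housekeeping list with 15 or more tested members, whose number is in parentheses, while dashed lines mark the 7.90% and 3.46% of all tested genes. Cholesterol synthesis has red and no blue, fatty acid oxidation blue and no red, and retinoid and P450 genes have long bars on both sides.

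Retinoid genes changed in 19 of 33 tested cases, 9 higher, 5 of the 29 above the floor, and 10 lower. Enterocytes cleave dietary carotenoids to retinal, reduce and esterify it for export, and can oxidize it to retinoic acid. Isx, an intestinal homeobox factor known as a repressor of Bcmo1 and Scarb1, fell from 53.9 to 23.4 RPKM, at q = 8.63e-06 in the authors' deposited table. Bcmo1, which cleaves beta-carotene, rose from 4.58 to 17.9 RPKM, 3.90-fold, at q = 2.79e-09 in the authors' deposited table. Scarb1, through which carotenoids enter, rose 3.25-fold, at q = 1.33e-10 in the authors' deposited table. Lrat, the retinol esterifying enzyme, rose from 8.83 to 14.9 RPKM but shares its locus entry. Rbp2, the abundant cellular retinol binding protein of the enterocyte, had 6369.9 RPKM in control and 5858 RPKM in Eed-null villus and was not called.

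Abundant oxidizing enzymes of the same pathway fell. Rdh7 fell 4.21-fold, at q = 1.37e-12 in the authors' deposited table. Aldh1a1, a retinal dehydrogenase, fell from 319 to 94.1 RPKM, 3.39-fold, and its neighbour in function Aldh1a7 from 27.3 to 10.6 RPKM. The alcohol dehydrogenase genes Adh1, Adh4 and Adh7 fell from 536 to 293 RPKM, from 43.1 to 13.8 RPKM and from 1.13 to 0.284 RPKM. Dhrs3, which reduces retinal back to retinol, also fell, from 19.9 to 6.15 RPKM, and Bco2, the second carotenoid-cleaving enzyme, from 66.1 to 36.4 RPKM. On the response side, genes scarce in control villus rose, with the retinoic acid degrading enzyme Cyp26b1 from 0.0467 to 2.18 RPKM, the receptors Rarg and Rarb from 0.352 to 2.61 RPKM and from 0.174 to 0.860 RPKM, and Aldh1a2, another retinal dehydrogenase, from 0.0166 to 0.392 RPKM. Cyp26b1, Rarb and Aldh1a2 lay below 0.351 RPKM in control villus.

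Cholesterol synthesis genes rose in 10 of 31 tested cases and fell in none, with a median log2 difference of 0.48. The called members lay on the mevalonate pathway, which builds isoprenoids and then sterols, from the phosphorylation of mevalonate onward, or regulate it. No earlier step of the pathway was among the calls. Mvk and Pmvk, which phosphorylate mevalonate, rose from 10.6 to 20.4 RPKM and from 13.7 to 31.7 RPKM, Mvd, which follows them, from 8.79 to 16.7 RPKM, and Idi1, the isomerase, from 27.6 to 51.9 RPKM. Fdps, which makes farnesyl diphosphate, rose from 56.7 to 115 RPKM. In the sterol branch Sqle, which oxidizes squalene, rose from 21.2 to 44.5 RPKM, and Cyp51, Hsd17b7 and Sc5d, which process lanosterol and its products, from 16.8 to 34.5 RPKM, from 6.37 to 12.2 RPKM and from 43.2 to 70.9 RPKM. Insig1, the sterol-regulated brake of the pathway, rose from 44.3 to 78.1 RPKM. Folds lay close together, from 1.64-fold in Sc5d to 2.32-fold in Pmvk, and q from 8.37e-05 for Pmvk to 0.0198 for Sc5d in the authors' deposited table. The regulator Srebf2, which shares its locus entry, had 20.8 RPKM in control and 25.1 RPKM in Eed-null villus and was not called. Values were higher in Eed-null villus for 26 of the 31 members. With a 2-fold minimum 4 of the 10 calls were left.

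Fatty acid oxidation and ketogenesis genes fell in 6 of 45 tested cases and rose in none, and 33 of the values were lower in Eed-null villus, beside 7228 of 12525 over all tested genes. The median log2 difference of the list was -0.20, or -0.10 after the values were rescaled to a median ratio of 1, and with a 2-fold minimum 2 of the 6 calls were left. Hsd17b4, a peroxisomal enzyme of this pathway, fell from 105 to 47.4 RPKM, and Acox2, another peroxisomal enzyme, from 6.92 to 3.60 RPKM. Eci1 and Ech1, which process unsaturated fatty acids, fell from 63.3 to 34.7 RPKM and from 159 to 89.2 RPKM, and Acat1, the mitochondrial thiolase, from 61.5 to 33.6 RPKM. Ppara, the nuclear receptor that drives transcription of the pathway, fell from 17.1 to 8.37 RPKM, 2.04-fold, at q = 0.00386 in the authors' deposited table. Cpt1a, which admits fatty acids to mitochondria, had 31.5 RPKM in control and 26.2 RPKM in Eed-null villus and was not called. Of 79 tested subunits of oxidative phosphorylation only Ndufa4 was called, which fell from 520.3 to 333 RPKM, and of 25 tricarboxylic acid cycle genes only the pyruvate carrier gene Mpc1, which fell from 129 to 78.9 RPKM.

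**Figure D4:**
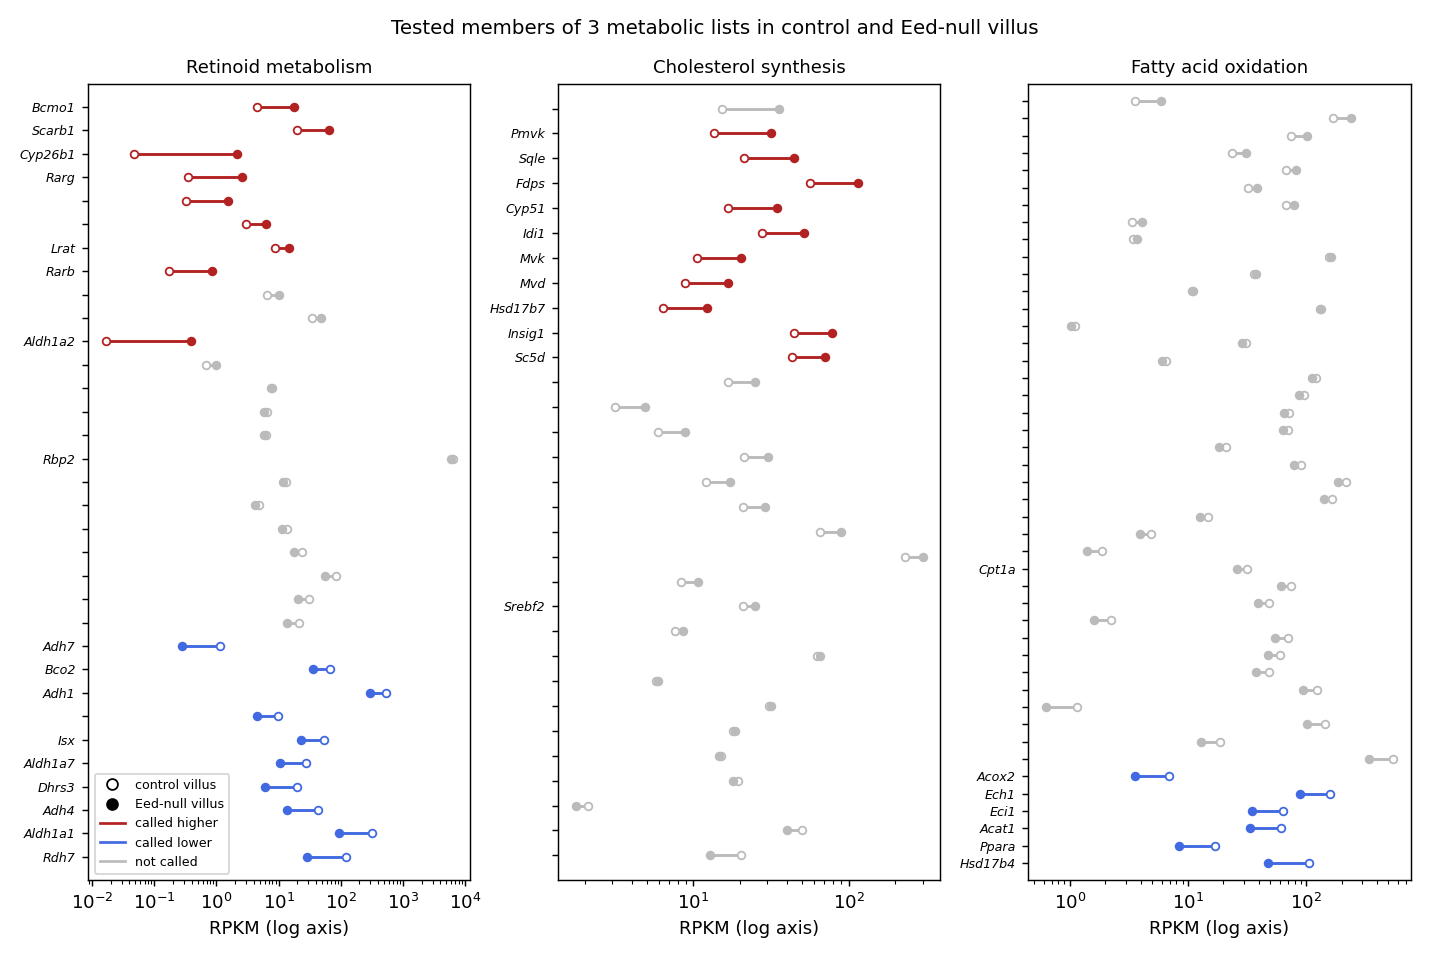
RPKM (log axis) of the tested members of the retinoid, cholesterol synthesis and fatty acid oxidation lists in control (open) and Eed-null villus (filled), ordered by their difference, with called genes in colour and genes described in the text labelled. Retinoid genes separate into 9 that rose and 10 that fell, 10 cholesterol genes rose by similar amounts, and 6 fatty acid oxidation genes fell.

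Genes that make and release glucose were among those that fell. Pck1, which starts gluconeogenesis, fell from 258 to 120.0 RPKM, and G6pc and Slc37a4, the enzyme and the carrier that release free glucose, fell from 18.6 to 6.58 RPKM and from 53.9 to 31.9 RPKM. Of 40 tested genes of glycolysis, gluconeogenesis and fructose metabolism these were the 3 that fell, and 6 rose. They included the hexokinase gene Hk2 from 2.87 to 8.01 RPKM, Pfkfb3, which makes an activator of glycolysis, from 10.1 to 22 RPKM, and the lactate dehydrogenase gene Ldhb from 0.0507 to 2.91 RPKM. Hk1, Pfkm and Pcx also rose but share their locus entries. In the urea cycle Ass1, argininosuccinate synthase, rose from 0.576 to 8.95 RPKM, 15.5-fold, and Arg1, an arginase, from 1.48 to 3.81 RPKM, while Otc, which makes citrulline, fell from 91.4 to 36.5 RPKM. Glud1, which converts glutamate, fell from 171 to 101 RPKM.

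Cytochrome P450 genes changed in 24 of 48 tested cases, 12 in each direction, and those that fell were the more abundant. Cyp3a25 fell from 213 to 86.6 RPKM, Cyp2b10 from 204 to 83.6 RPKM, Cyp4v3 from 332 to 174 RPKM and Cyp2j6 from 129 to 78.5 RPKM, enzymes of drug and fatty acid metabolism. Cyp1a1, the classic target of the aryl hydrocarbon receptor, fell 2.28-fold to 4.39 RPKM. Of the 12 that rose only Cyp2c55 from 52.1 to 102 RPKM, Cyp4f16 from 79.9 to 142 RPKM and Cyp3a44 from 0.485 to 2.47 RPKM were at or above 0.351 RPKM in control villus. Cyp51 is counted with cholesterol synthesis and not here. Cyp4f17, scarce in control villus, rose from 0.252 to 6.87 RPKM. Cyp3a11, an abundant drug-metabolizing member, had 441 RPKM in control and 449.6 RPKM in Eed-null villus and was not called. P450 genes lie in clusters of similar copies, and the sources used here do not say how reads were divided among copies.

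Conjugating and redox enzymes were called in both directions. Of 17 tested glucuronosyltransferase and sulfotransferase genes 5 fell, led by Ugt2a3 from 88.3 to 19.7 RPKM, with Ugt2b36 from 7.95 to 2.87 RPKM, Ugt2b38 from 3.09 to 0.537 RPKM and Sult1d1 from 175 to 106 RPKM, besides Ugt2b5. Sult1a1 alone rose, from 0.304 to 4.47 RPKM, from below the floor of the test. Of 32 tested glutathione genes 4 rose and 3 fell. Gpx2, the epithelial glutathione peroxidase, rose from 392 to 1017 RPKM, the reductase gene Gsr from 54.6 to 109 RPKM, and the synthesis genes Gclc and Gss from 23.3 to 46.7 RPKM and from 62.8 to 98.4 RPKM. Gpx4, the peroxidase of membrane lipids, fell from 638 to 386 RPKM, Mgst1, a microsomal transferase, from 208 to 112 RPKM, and Gstz1, an enzyme of tyrosine breakdown, from 27.9 to 15.3 RPKM. Of 46 tested aldo-keto reductases and alcohol and aldehyde dehydrogenases 7 rose and 9 fell, the latter with Adh1, Aldh1a1 and Aldh1b1, a mitochondrial member that went from 171 to 76.9 RPKM. The aldo-keto reductase genes Akr1b8, Akr1b10 and Akr1b7, which reduce reactive aldehydes and lie side by side on chromosome 6, rose from 1.97 to 64.1 RPKM, from 3.26 to 10.7 RPKM and from 137 to 283 RPKM. Ephx1, the microsomal epoxide hydrolase, rose from 10.01 to 169 RPKM. Of 14 tested carboxylesterase genes 4 rose and 4 fell.

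Nuclear receptors were called in both directions. Besides Ppara, the members that fell were Nr1h3, the oxysterol receptor LXR alpha, from 48.3 to 26.1 RPKM, Nr3c1, the glucocorticoid receptor, from 22 to 11.7 RPKM, Thrb, a thyroid hormone receptor, from 5.09 to 2.42 RPKM, and Nr5a2 from 5.69 to 3.10 RPKM. In all 5 fell and 4 rose of 36 tested, the latter being Rarg, Rarb, Nr4a1 and Nr4a2. Among 38 transcription factors of intestinal identity 2 fell (5.26%) and 3 rose (7.89%), beside 3.46% and 7.90% over all tested genes. Cdx2, the homeobox factor that specifies intestine, fell from 61 to 31.1 RPKM, 1.96-fold, at q = 0.000487 in the authors' deposited table, and Isx was the other. Hnf4a, which maintains enterocyte gene expression, had 176 RPKM in control and 238 RPKM in Eed-null villus and was not called, and Cdx1 had 38.8 RPKM in control and 32.3 RPKM in Eed-null villus. Hnf4g, a close relative of Hnf4a, had 153 RPKM in control and 96 RPKM in Eed-null villus, at q = 0.06 in the authors' deposited table. Gata4, the factor of the proximal gut, had 35.8 RPKM in control and 37.5 RPKM in Eed-null villus, and Gata6 29.1 RPKM in control and 34.9 RPKM in Eed-null villus, neither of them called. Sox9, a crypt and Paneth cell factor, rose from 1.99 to 4.10 RPKM.

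Goblet cell genes rose in 10 of 29 tested cases and fell in none, and 27 of the values were higher in Eed-null villus. At q at or below 0.01 there were 5 calls, and 3 with a 2-fold minimum. Spink4, a secreted goblet peptide, rose from 1204 to 3242 RPKM, Agr2, the disulfide isomerase that folds mucin, from 319.6 to 567 RPKM, and Muc2, the main gel-forming mucin, from 75.3 to 127 RPKM. Atoh1 and Spdef, factors that start and mature the secretory lineage, rose from 7.79 to 13.6 RPKM and from 9.04 to 15.2 RPKM. The median log2 difference of the list was 0.59, and its summed level was 13364 RPKM in control and 19539 RPKM in Eed-null villus. The most abundant members were not called. Zg16, a lectin of the mucus, had 5254 RPKM in control and 5723 RPKM in Eed-null villus, and Tff3, the trefoil peptide, 3551 RPKM in control and 5538 RPKM in Eed-null villus.

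Paneth cell genes other than defensins rose in 7 of 23 tested cases and fell in none. Mptx1 rose 5.75-fold and Mptx2 2.55-fold, and Ang4, an antimicrobial ribonuclease, rose from 903 to 1852 RPKM. The lipase and colipase genes Pnliprp2 and Clps rose from 56.2 to 128 RPKM and from 99.8 to 171 RPKM. These were also the 2 members called of the pancreas acinar list, in which trypsinogen and amylase genes were listed at 0 in both groups. Such a 0 can be a failed estimate. The defining lysozyme gene Lyz1 had 879 RPKM in control and 699 RPKM in Eed-null villus and Mmp7, the enzyme that activates defensins, 48.4 RPKM in control and 69.6 RPKM in Eed-null villus, and neither was called. Of 15 tested genes on the defensin list 3 fell and none rose, with 7 values higher and 8 lower. Defa21 fell from 182 to 50.9 RPKM, Defa20 from 123 to 41.4 RPKM and Defa22 from 192 to 69.4 RPKM. The list leaves out neighbours under other symbols that fell in runs with Defa22 and Defa20 on chromosome 8. These were Gm14851 from 253 to 82.9 RPKM, Gm15308 from 24.8 to 8.35 RPKM, Gm15284 and Gm14850, so the count of 3 does not cover these runs. Defa24, with the highest level, had 3729.9 RPKM in control and 3485 RPKM in Eed-null villus and was not called. These near-identical copies may share reads, so their single values are uncertain.

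Enteroendocrine genes rose in 8 of 41 tested cases and fell in 1. The hormone genes Gip, Sst and Tac1 rose from 188 to 384 RPKM, from 38.7 to 82.2 RPKM and from 3.27 to 7.92 RPKM. The prohormone processing genes Pcsk1 and Cpe rose from 2.90 to 8.02 RPKM and from 6.55 to 17.9 RPKM, and Tm4sf4, a membrane protein, from 177 to 581 RPKM. Gcg, which encodes glucagon-like peptides, fell 3.70-fold. The general marker Chga had 26.9 RPKM in control and 34.7 RPKM in Eed-null villus and was not called. The summed level of the list was 884 RPKM in control and 1680.0 RPKM in Eed-null villus. Much of this increase came from 2 genes, Tm4sf4 (177 to 581 RPKM) and Gip (188 to 384 RPKM). Tuft cell genes were called in 2 cases, with Hpgds, a prostaglandin D synthase, higher from 0.943 to 8.80 RPKM and Trim38 lower from 31.8 to 12.7 RPKM of 30 tested, and the defining kinase gene Dclk1 had 3.48 RPKM in control and 4.06 RPKM in Eed-null villus.

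Stem cell genes did not move in 1 direction. Of 32 tested, 6 rose and 2 fell. Olfm4, a secreted marker of crypt base cells, fell from 94.5 to 40.6 RPKM, at q = 6.18e-06 in the authors' deposited table, and Hopx fell from 54.9 to 29.3 RPKM. Lgr5, the receptor that defines these cells, had 0.523 RPKM in control and 0.592 RPKM in Eed-null villus and was not called. The members that rose were Bmi1, Cd44 from 1.38 to 5.91 RPKM, Soat1, the telomerase gene Tert from 0.898 to 3.35 RPKM, the ephrin receptor gene Ephb3 from 0.963 to 3.39 RPKM and Sox9. Proliferation genes were called in few cases. Of 63 replication genes E2f8, a cell-cycle factor, fell from 2.27 to 1.13 RPKM, and of 75 mitosis genes Mki67 and the condensin gene Ncapd3 fell from 6.18 to 3.85 RPKM and from 4.18 to 1.89 RPKM. Lower values in Eed-null villus were listed for 58 of the replication genes and 71 of the mitosis genes, with median log2 differences of -0.26 and -0.31. The part that a changed mix of crypt and villus cells has in the lineage lists was not tested.

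Genes of the p53 response rose in 27 of 46 tested cases and fell in 1, and of the 43 at or above 0.351 RPKM in control villus 24 rose. The p53 gene Trp53 itself had 10.4 RPKM in control and 10.03 RPKM in Eed-null villus and was not called. Genes of growth arrest, of cell death and of feedback on p53 were among those that rose. Ccng1, a cyclin induced by p53, rose from 18.1 to 161 RPKM, Cdkn1a, the p21 gene, from 137 to 545 RPKM, and Mdm2, which degrades p53, from 21.7 to 51.1 RPKM. Of the death genes Bax, which opens mitochondria, rose from 28.7 to 97.7 RPKM, Pmaip1, encoding Noxa, from 28.9 to 63.4 RPKM, Bbc3, encoding Puma, from 1.38 to 2.94 RPKM, and the death receptor gene Tnfrsf10b from 3.82 to 8.22 RPKM. Eda2r, another receptor of this family, rose from 0.0459 to 4.92 RPKM, and Psrc1, a microtubule regulator, from 0.438 to 17 RPKM. Sesn2 rose from 2.94 to 10.9 RPKM, while its relative Sesn1 fell from 52 to 31.7 RPKM. In the wider apoptosis list 7 of 38 members rose and Bad, a promoter of cell death, fell from 40.4 to 20.01 RPKM. Those that rose held also the necroptosis kinase gene Ripk3 from 15.6 to 37.8 RPKM and the inflammatory caspase gene Casp4 from 7.35 to 18.6 RPKM. Of 59 DNA repair genes Mgmt, which removes alkyl groups from DNA, rose from 0.291 to 8.04 RPKM and Ercc5 from 3.03 to 5.25 RPKM, whereas Xrcc1 and Prkdc fell from 5.94 to 2.49 RPKM and from 0.914 to 0.422 RPKM.

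Factors secreted by senescent cells rose in 12 of 25 tested cases and fell in none, and of the 17 above the floor 7 rose. Gdf15, a stress cytokine, rose from 0.563 to 15.7 RPKM, the chemokine genes Cxcl10 and Cxcl16, which share their locus entries, from 1.25 to 7.02 RPKM and from 10.02 to 30.8 RPKM, and the protease inhibitor gene Serpine2 from 0.00614 to 1.78 RPKM. The growth factor genes Areg and Ereg, ligands of the EGF receptor, rose from 9.23 to 84.9 RPKM and from 1.90 to 6.97 RPKM. Several feedback inhibitors of that pathway rose as well. Dusp6, a phosphatase of ERK kinases, rose from 36.4 to 57.9 RPKM, Dusp4 from 1.74 to 4.30 RPKM, Dusp9 from 0.649 to 4.70 RPKM and Spry4 from 0.284 to 2.92 RPKM. Of 52 tested EGF and FGF pathway genes 12 rose, 8 of the 44 above the floor, and 2 fell, namely Dusp12 and Fgf1.

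Mucosal defence genes rose in 14 of 40 tested cases and in 9 of the 34 above the floor, while Reg3a and Reg1 fell. Reg3a, a secreted lectin, fell from 331 to 30.0 RPKM, 11-fold, and Reg1 from 1694 to 412 RPKM, 4.12-fold, and the authors' deposited table lists q = 0 and 9.65e-12. Their relatives Reg3b and Reg3g had 4579 RPKM in control and 3581 RPKM in Eed-null villus and 1125 RPKM in control and 1439.7 RPKM in Eed-null villus and were not called. Retnlb rose 20.1-fold, the serum amyloid genes Saa1, Saa2 and Saa3 from 4.66 to 32.4 RPKM, from 0.409 to 2.59 RPKM and from 1.26 to 9.39 RPKM, and Pglyrp1, which binds bacterial peptidoglycan, from 44.8 to 125 RPKM. Ltf, the iron-binding lactoferrin, rose from 0.253 to 7.58 RPKM, and Slpi, a protease inhibitor of mucosae, from 0.278 to 3.39 RPKM. Genes of the gasdermin C group, pore-forming proteins of the epithelium, rose as neighbours. Gsdmc4 rose from 49.6 to 172 RPKM, Gsdmc2 from 32.3 to 97.9 RPKM and Gsdmc3 from 12.3 to 24.1 RPKM, and these copies are similar enough that reads may be shared.

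Interferon response genes rose in 19 of 74 tested cases and fell in 2, and 17 of the 67 above the floor rose. Isg15, a ubiquitin-like modifier, rose from 115 to 219 RPKM, Ifit1 and Ifit2, which bind viral RNA, from 47 to 108 RPKM and from 1.59 to 8.57 RPKM, and Usp18, which removes Isg15 from proteins, from 26.2 to 65 RPKM. Rsad2, encoding viperin, rose from 6.67 to 19 RPKM, Ifi44 from 3.60 to 14.7 RPKM, and the guanylate-binding protein genes Gbp2, Gbp3 and Gbp7 from 1.07 to 4.64 RPKM, from 2.13 to 6.14 RPKM and from 1.42 to 3.32 RPKM. Among the factors that drive these genes, Irf7 at 148 RPKM in control and 173 RPKM in Eed-null villus and Irf9 at 28.7 RPKM in control and 34.7 RPKM in Eed-null villus were not called. Trim12a fell from 13.8 to 0.236 RPKM, 58.6-fold, and Trim30d from 19.3 to 4.00 RPKM. Trim12a lies on chromosome 7, which also carries Eed, and shares its locus entry with another gene, so its reads cannot be assigned with certainty.

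Mucin-type glycosylation genes rose in 13 of 60 tested cases, 9 of the 53 above the floor, and fell in 4. Fut2, the fucosyltransferase that makes H antigen on mucosal glycans, rose from 3.63 to 33.1 RPKM, 9.12-fold, at q = 0 in the authors' deposited table. Gcnt1 and Gcnt3, which branch mucin core glycans, rose from 0.483 to 4.96 RPKM and from 20.2 to 34.5 RPKM, B3gnt7, which extends keratan sulfate chains, from 10.9 to 26.7 RPKM, and the sialyltransferase gene St3gal6 from 33.5 to 76.7 RPKM. B4galnt1 and B4galnt2, which add N-acetylgalactosamine, fell from 143 to 83.6 RPKM and from 171 to 101 RPKM, Fut8, which adds core fucose, from 26.7 to 15.1 RPKM, and St6galnac2 from 20.3 to 10.8 RPKM. Npl, which breaks down sialic acid, rose from 18.9 to 163 RPKM, 8.58-fold.

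No member of the Ly6, S100 or annexin lists fell. Of 16 tested Ly6 family genes 6 rose, 3 of the 12 above the floor, led by Ly6d, a marker of stratified epithelium and lymphoid progenitors, from 0.452 to 20.2 RPKM, 44.6-fold, and Gml from 0.720 to 7.65 RPKM. Values were higher in Eed-null villus for all 16 of them. Of 25 S100 and annexin genes 6 rose, 4 of the 21 above the floor. S100a6 rose from 103 to 252 RPKM, S100a11 from 174 to 381 RPKM, Anxa3 from 2.73 to 11.3 RPKM, Anxa5 from 2.67 to 9.80 RPKM and Anxa8 from 0.00683 to 5.23 RPKM. Many of these genes mark fetal or regenerating epithelium, of whose list 18 of 32 members rose and none fell, 14 of them among the 26 above the floor. Clu, a marker of cells that revive crypts after damage, rose from 0.468 to 1.53 RPKM, and Spp1, encoding osteopontin, from 0.962 to 3.25 RPKM.

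The basement membrane and its receptors rose in part. Fn1, fibronectin, rose from 1.18 to 19 RPKM, 16.1-fold, Lamc1, a laminin gamma chain, from 0.364 to 1.99 RPKM, and Lama5, a laminin alpha chain, from 0.508 to 5.67 RPKM. The integrin genes Itgav and Itga5 rose from 3.30 to 5.56 RPKM and from 0.205 to 0.716 RPKM. Of 33 tested laminin, integrin and collagen genes 7 rose, 5 of the 29 above the floor, and none fell. Fn1 is also on the mesenchyme list, of which it alone rose, and the other called member, Fbln1, fell from 67.5 to 40.2 RPKM. Vwa1, a matrix protein, fell from 45.6 to 8.99 RPKM, 5.07-fold. Keratin genes rose in 4 of 12 tested cases and in 2 of the 10 above the floor. Among them were Krt7 from 30.8 to 75.6 RPKM and Krt18 from 124 to 230.0 RPKM. Beside 7.90% over all tested genes, 4 of 46 junction genes rose (8.70%). They were Cldn2, the pore-forming claudin of crypts, from 13.1 to 33.5 RPKM, and, from below the floor, Cgnl1, Cldn9 and Gja4.

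Wnt pathway genes rose in 9 of 38 tested cases and fell in none, but of the 30 above the floor only 3 rose. Wnt4, a secreted ligand, rose from 0.380 to 13.7 RPKM, 36-fold, and the ligands Wnt11, Wnt9a and Wnt5a, all below the floor in control villus, from 0.0709 to 1.07 RPKM, from 0.0972 to 0.973 RPKM and from 0.0287 to 0.465 RPKM. Apcdd1 and Notum, secreted or membrane inhibitors of the pathway, rose from 0.313 to 4.87 RPKM and from 0.268 to 1.04 RPKM. Of the receptors Fzd7 rose from 2.08 to 4.67 RPKM and Ror2 from 0.306 to 1.63 RPKM. Of 23 Notch genes the ligands Jag1 and Jag2 and the receptor Notch1 rose, from 1.20 to 3.01 RPKM, from 0.396 to 1.32 RPKM and from 0.790 to 1.63 RPKM. Of 37 BMP, TGF-beta and hedgehog genes 5 rose, 3 of the 35 above the floor, and Bmp3 fell from 3.30 to 0.886 RPKM. The receptor gene Tgfbr2 rose from 2.13 to 5.53 RPKM and the ligand gene Bmp2 from 5.64 to 10.2 RPKM. By control level 10.3% to 2.96% of all tested genes above the floor rose, and the Wnt and BMP counts above the floor lay near these shares.

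Hox, homeobox and forkhead factors rose mostly from below the floor. Of 39 Hox genes 15 were tested, all below the floor in control villus, and 12 rose. Genes below the floor were tested only where Eed-null villus lay above it, so they could only be called higher. Of all 743 such genes 50.2% were, and this is the share to set beside the Hox count. Those of the HoxB cluster that rose were Hoxb13 from 0.0991 to 82.3 RPKM, Hoxb9 from 0.0531 to 2.09 RPKM, Hoxb7 from 0.114 to 1.32 RPKM, Hoxb6 from 0.137 to 1.89 RPKM and Hoxb5 from 0.0603 to 0.395 RPKM. Of 45 tested homeobox and paired factors of other kinds 15 rose, of which only Meis2 from 1.01 to 6.50 RPKM and Pdx1 were above the floor, and 3 fell, Cdx2, Pax8 from 5.67 to 1.95 RPKM and Nkx6-3 from 0.989 to 0.0441 RPKM. Meis2 is a partner of Hox proteins, and Nkx6-3 a factor of the distal stomach. Forkhead, Sox, T-box and Gata factors rose in 9 of 34 tested cases, with Foxq1 from 15.6 to 30.1 RPKM and Sox9 the ones above the floor. Gata3, a factor of T cells and urogenital epithelium, rose from 0.0416 to 0.706 RPKM.

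Genes on lists made for other organs rose in part, from low and from higher control levels, and some of them are expressed in control villus. Among 15 tested genes of stomach, skin, lung and urogenital epithelium 6 rose, 3 of the 10 above the floor. Gkn1, the stomach protein gastrokine, rose from 0.228 to 8.02 RPKM, and Wfdc2, of airway and urogenital epithelium, from 0.114 to 3.46 RPKM. Of 28 tested neuronal and synaptic genes 10 rose and none fell, 3 of the 21 above the floor. Nefm, a neurofilament subunit, rose from 0.106 to 5.74 RPKM, and Ret, a receptor of the enteric nervous system, from 0.419 to 3.50 RPKM. The glia factor Sox10 was listed at 0 in both groups beside them, a value that can be a failed estimate. Of 29 liver and pancreas genes 9 rose, 8 of the 23 above the floor, and 4 fell, the clotting factor gene F10 rising from 0.409 to 3.23 RPKM and the fetal protein gene Afp from 10.3 to 17.9 RPKM. This list also holds genes that are abundant in control villus, such as Reg1 at 1694 RPKM, which fell. Ass1 on it, which rose, is also counted with the urea cycle, so the list does not stand for foreign organs alone. Of 7 tested muscle genes Myl7, Tnni1 and Acta1 rose from 7.51 to 29.97 RPKM, from 3.16 to 13.4 RPKM and from 4.66 to 13.9 RPKM, Tnni1 next to Phlda3 on chromosome 1.

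**Figure D5:**
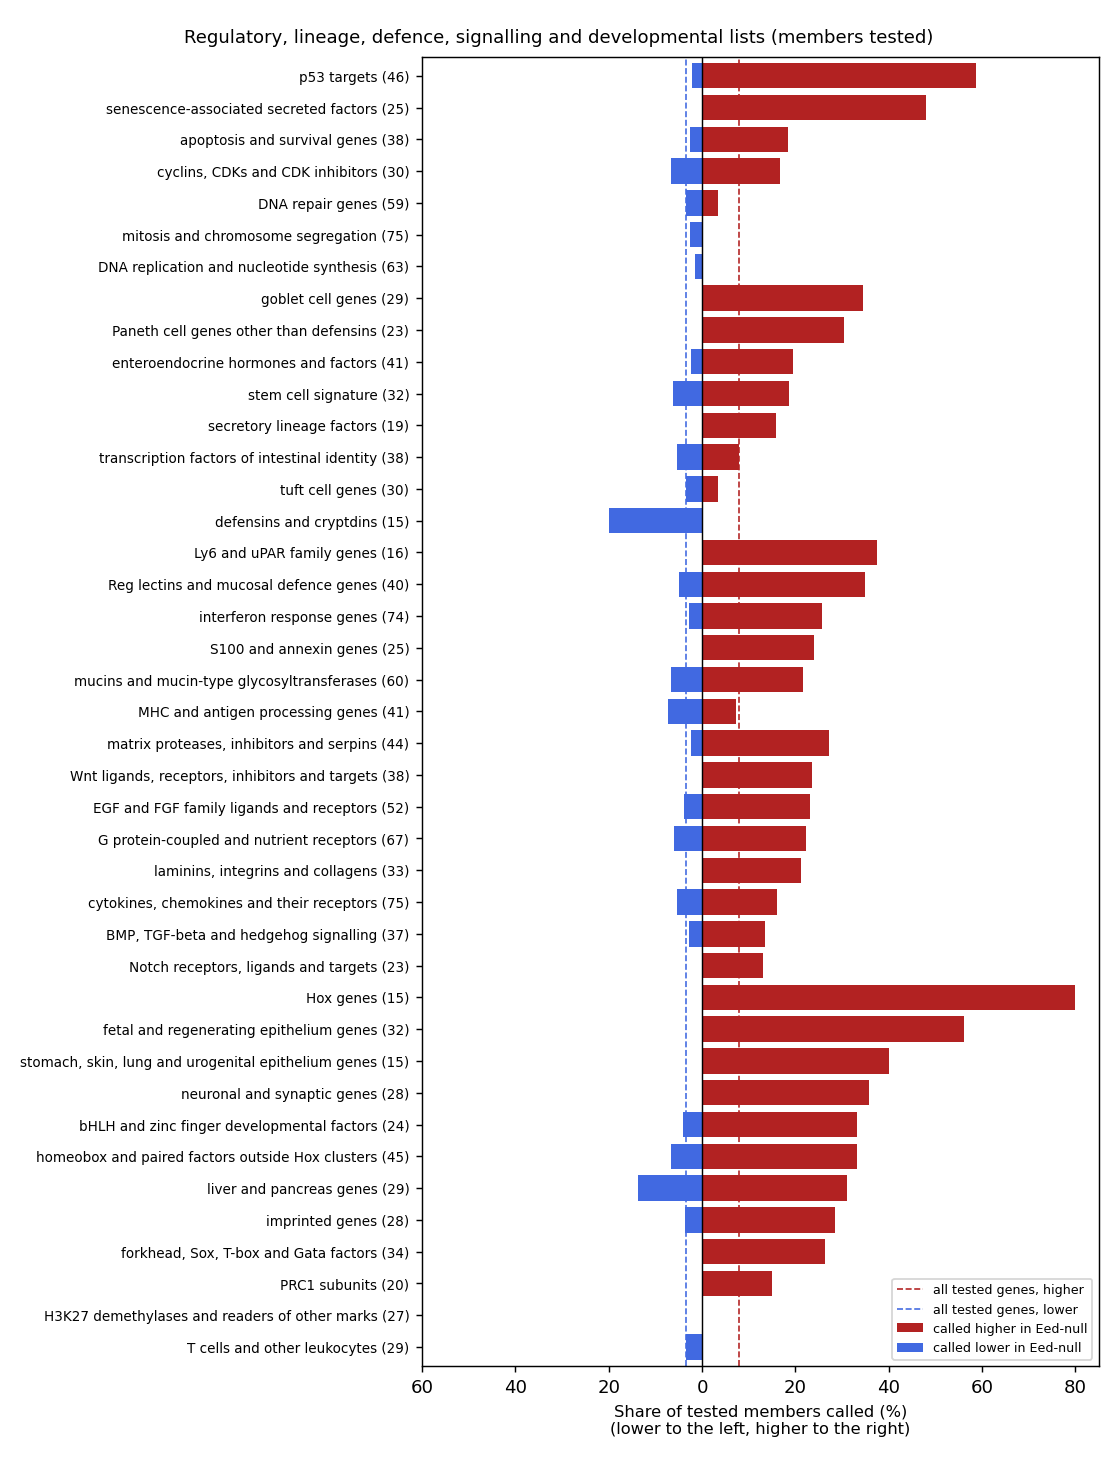
Share of tested members called higher (red, to the right) and lower (blue, to the left) in lists of cell cycle, lineage, defence, signalling, development, Polycomb and leukocyte genes with 15 or more tested members, whose number is in parentheses, while dashed lines mark the 7.90% and 3.46% of all tested genes. Hox genes, p53 targets and fetal or regenerating epithelium genes have the longest red bars among these lists, and the chromatin list is empty. All tested Hox genes lay below 0.351 RPKM in control villus, where 50.2% of all tested genes were called higher.

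Called genes also stood side by side in the genome. Among tested genes in order of position on mm9, 29 runs of 3 or more neighbours rose, with 95 genes, and 9 runs fell, with 29 genes. The longest run held 6 genes on chromosome 15, Pvt1, Gsdmc, Gsdmc2, Gsdmc3, Gsdmc4 and Gsdmcl-ps, between 61869541 and 63757008. Also on chromosome 15, Lynx1, Ly6d, Gml and Hemt1 rose between 74578285 and 74654866. Hoxb9, Hoxb7, Hoxb6 and Hoxb5 rose between 96132643 and 96167435 on chromosome 11, and Ttll6, Hoxb13 and the predicted gene Gm53 rose just before them, between 95995099 and 96125798. Gm53 went from 0.269 to 10.8 RPKM. Nav1, Csrp1, Phlda3 and Tnni1 rose between 137331156 and 137707566 on chromosome 1, and Nbea, Tm4sf1, Tm4sf4 and Wwtr1 between 55429119 and 57379832 on chromosome 3. Wwtr1, which encodes the Yap partner Taz, went from 0.133 to 0.574 RPKM, and Tm4sf1 from 0.607 to 5.82 RPKM. The imprinted genes Dlk1, Meg3 and Rian rose between 110691032 and 110899921 on chromosome 12.

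The runs that fell were mostly enzyme and defensin families. Ugt2b36, Ugt2b5, Ugt2a3 and Ugt2b38 fell between 87494951 and 87853228 on chromosome 5, and Ces1d, Ces1e, Ces1f and Ces1g, carboxylesterases, between 95689970 and 95861108 on chromosome 8. Ces1f, the most abundant of these, fell from 109.7 to 60.1 RPKM. In the same carboxylesterase cluster Lpcat2, Ces1b and Ces1c rose between 95379248 and 95655182, with Ces1c from 3.88 to 14.7 RPKM. The retinol dehydrogenase genes BC089597, Rdh7 and Hsd17b6 fell between 127303531 and 127444564 on chromosome 10, BC089597 from 15 to 3.76 RPKM. Members of such families resemble each other, and reads may be divided between them.

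Genes of general cellular programs were called in few cases. Of 77 ribosomal protein genes Rps19 rose from 183 to 301 RPKM and Rps27l, a p53 target, from 302 to 544 RPKM, with a list median of 0.11. Of 53 chaperone genes Hspa12a and Hspa2 rose, from 2.50 to 11.6 RPKM and from 0.253 to 1.07 RPKM, and of 61 translation factors 3 rose and 1 fell. Immediate early genes, which respond to handling as well as to signals, rose in 9 of 27 tested cases. Among them were Socs3, a cytokine signal inhibitor, from 20.4 to 48 RPKM, and Egr1 from 1.66 to 3.36 RPKM, and their part in the other changes was not tested. The Y-linked genes were not called, with Ddx3y at 5.89 RPKM in control and 4.86 RPKM in Eed-null villus.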

How the data were processed

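RNA-seq compared 3 libraries of Eed-null with 3 of control villus, made with an unstranded TruSeq V2 kit and read as 75 bp single-end reads, per the labels' protocols. The deposited table holds 1 RPKM value per group, in which the authors had combined the 3 libraries, with a p-value and a q-value that the authors computed, per the file headers. That header does not name the unit of the values, which was inferred because control villus RPKM of the other deposited table, named so in its header, were 1.16 times the values here over 10353 genes. Per the submitters' processing notes TopHat2 2.0.6, Cufflinks 2.0.1, Bowtie, Cuffdiff and build mm9 were used, with no role given, and no annotation is named in the sources used here. Depth per library is unknown, so no interval can be given. How far the p-values account for the spread between libraries is not stated in the sources used here, and they cover these libraries only.

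Genes with status OK (12525) were kept, 9992 others and 1 entry naming no gene were left out. A listed 0 can be a failed estimate, so no fold is given against it. Genes whose locus entry is shared were 17.2% of tested and 8.65% of called genes. Folds are ratios of RPKM without a pseudocount, and list medians use log2(RPKM + 1). Differences, lists, runs of neighbours and level classes were computed with Python 3.11.15, pandas 2.3.3 and numpy 2.4.6, and the script was tested on simulated data. The members and the 93 lists were chosen with earlier results of these data known, so the lists were described and not tested. Named are Eed, the 20 called genes with the largest difference in each direction, up to 4 called members per direction of each list, members of counts of 5 or fewer, and Lgr5, Olfm4, Alpi, Sis, Cdkn2a, Cdx2 and Hnf4a. Some of these are not reported here, and other genes were named for their role or after their values were seen. Alternatives were another q threshold, a fold minimum, filters on low values, leaving out shared locus entries, a rescaling and other pseudocounts. RefSeq windows on GRCm38.p6 were found for 78.8% of tested genes and 75.2% of those called higher, under the 80% set as a minimum, so a comparison of promoter composition between classes is void and none is given. Stem cell and chromatin data were not analysed here.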

Additional observations from a re-analysis of the deposited data

How the results depend on the processing

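No paired analysis was possible because the table holds 1 pooled value per group, and for the same reason leaving out each replicate in turn and a fit with a replicate block were not run. The 989 genes called higher in Eed-null villus were 727 at q at or below 0.01, 827 with a minimum of 2-fold, 739 among genes at 1 RPKM or more in a group and 922 without shared locus entries. With 1 RPKM or more required in both groups 427 were left, since that filter removes genes scarce in control villus. The 433 genes called lower in Eed-null villus were 258 at q at or below 0.01 and 216 with a minimum of 2-fold, where their median fold of 1.98 lies near the limit, and 408 with 1 RPKM or more in a group, 351 with 1 RPKM or more in both groups and 426 without shared locus entries. No named result reversed, but only the rescaling could have reversed one, since the other settings keep the order of the 2 values. Of 367 named results 68 lost their call at q at or below 0.01 and 77 with the 2-fold minimum. A rescaling to a median log2 ratio of 0 and pseudocounts of 0.1 and 5 do not enter the authors' q and so could not change a count of calls except through the direction of a value, which no called gene changed. Of 186 list counts 40 moved by over 1.5 times at q at or below 0.01 and 42 with the 2-fold minimum, 24 with 1 RPKM in a group and 9 without shared entries, and 56 of 182 with 1 RPKM in both groups. Besides the lists named in the report, the 2-fold minimum left 2 of 5 nuclear receptors that fell, 5 of 9 immediate early genes that rose and 12 of 19 solute carriers that fell, and q at or below 0.01 left 4 of those 9 immediate early genes, 4 of 9 liver and pancreas genes, 7 of 13 mucin glycosylation genes and 2 of 6 amino acid and urea cycle genes that rose. Without shared locus entries 3 of 6 glycolysis genes that rose were left. With 1 RPKM or more in both groups 0 of 6 Ly6 genes, 1 of 9 Wnt genes and 0 of 10 neuronal genes that rose were left. Below 0.351 RPKM in both groups no gene was tested, and the part of depth in this limit is unknown.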

Other observations

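Several of the genes with the largest changes belong to none of the lists above. Sval1, a member of the seminal vesicle antigen-like family, rose from 2.99 to 51.2 RPKM, 17.1-fold, and Ddit4l, an inhibitor of mTOR signalling, from 0.173 to 9.01 RPKM. The transcript E130012A19Rik rose from 0.204 to 18.2 RPKM. Cd55, which protects cells from complement, rose from 52.3 to 144 RPKM in a run of 3 neighbours with Daf2 and C4bp on chromosome 1. Among the genes that fell, Dnase1, a secreted nuclease that shares its locus entry, went from 322 to 65.1 RPKM, Pbld1 from 8.13 to 1.23 RPKM and the olfactory receptor gene Olfr165 from 6.48 to 0.798 RPKM. Ccdc114, a docking subunit of the dynein arms of cilia, fell from 3.10 to 0.0699 RPKM, 44.3-fold, at q = 5.53e-12 in the authors' deposited table.

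Of the genes with the largest falls, Trim12a, Trim30d and Ccdc114 lie on chromosome 7, which also carries Eed between 97103163 and 97129486 on mm9. Trim12a lies between 111448410 and 111473352, Trim30d between 111618528 and 111656363 and Ccdc114 between 53183767 and 53204326. Ccdc114 fell in a run of 3 neighbours with Abcc6 and Nomo1, between 53183767 and 53339582. Abcc6 went from 2.71 RPKM in control to 0.594 RPKM in Eed-null villus. Among tested genes within 20 Mb of Eed, a window chosen after the data were seen, 25 of 192 were called higher (13.02%) and 10 lower (5.21%). On the rest of chromosome 7 these were 58 and 29 of 775 (7.48% and 3.74%). Between chromosomes the share called higher ran from 4.77% on chromosome 10 to 11.1% on chromosome 15. The difference between these shares was not tested. Both groups carry the floxed Eed alleles on a mixed strain background, and whether other alleles on chromosome 7 differ between them was not tested.

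A few abundant genes carry no test. Apoa4, an apolipoprotein of chylomicrons, was listed at 7256 RPKM in Eed-null villus and at 0 in control villus, with the status HIDATA, which marks a locus left untested for too many fragments, so no difference is given for it. The defensin gene Defa4, untested for low data, had 130.6 RPKM in control and 53.9 RPKM in Eed-null villus.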
